A study of Mus musculus with 46 samples.

Results

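The genes examined here encode the nuclear subunits of the mitochondrial respiratory chain. They were chosen by symbol: every row of the liver RNA-seq count table whose name begins with Nduf followed by a, b, c, s or v and a digit, with Uqcr, with Cox4 to Cox8 or with Atp5, or is Sdha, Sdhb, Sdhc, Sdhd, Cyc1 or Cycs, and that had at least 10 counts in every mouse. Of 25494 rows, 86 matched these patterns and 79 passed the minimum, namely 35 genes of complex I, 4 of complex II, 9 of complex III, 13 of complex IV, 15 of complex V, cytochrome c and 2 genes that carry an Atp5 symbol without encoding a subunit. Ndufa4, first described with complex I, was placed in complex IV, where its protein is now known to sit.

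The study fed male C57BL/6 mice for 20 weeks a lipid-rich diet (LD, 60% of energy from lipid, 20% from carbohydrate and 20% from protein) or a carbohydrate-rich diet (CD, 10% from lipid, 70% from carbohydrate and 20% from protein). The mice arrived at 5 weeks of age and were acclimated for 1 week on chow. The labels call the diets high fat and low fat, and they name no transgene or drug in either group. RNA-seq was made from whole liver of 5 mice per diet, and chromatin was profiled in liver for H3K27ac (3 samples per diet), for the transcription factors Hnf4α and C/EBPα (2 samples each per diet) and for promoter contacts by capture Hi-C (2 samples per diet, pooled by the authors). The labels do not say which libraries came from the same animal.

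The respiratory chain passes electrons from NADH and succinate to oxygen. Complex I (NADH dehydrogenase) and complex II (succinate dehydrogenase) feed electrons into coenzyme Q, complex III passes them to cytochrome c, and complex IV (cytochrome c oxidase) hands them to oxygen, while complexes I, III and IV pump protons whose return through complex V, the ATP synthase, makes ATP. A few core subunits are encoded in mitochondrial DNA and carry other symbols, so they are outside this set. In liver the chain takes up the electrons released by fatty acid oxidation, and transcription of its nuclear genes is known to answer to NRF1, to the ETS factor GABP, to estrogen-related receptors and to YY1, with PGC-1α as a shared coactivator.

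The mice had between 31707963 and 39012699 counts assigned to genes, and the 79 genes together took 1.43% to 1.61% of them. Hepatocyte markers were the highest of the marker lists, with a summed level of 82450 to 103000 CPM (counts scaled to a common library size, with TMM factors) in LD mice and 91760 to 106100 in CD mice, and markers of adipocytes and striated muscle were near 0 in every mouse. Of 8 hepatocyte markers, 3 were called higher on CD (Cps1, Serpina1a and Tat), against 11.1% of all rows tested. Of these, Tat was not called without LD replicate 3, 4 or 5 or without CD replicate 1, 2 or 3, or with no filter on low counts. Higher on LD were 1 of 7 macrophage markers (Cd68), 1 of 6 lymphocyte markers (Cd8a), 1 of 5 endothelial markers (Lyve1) and 1 of 5 stellate cell markers (Col1a1). Over all rows tested, 13.8% were called higher on LD. No marker of these lists was at 0 in all mice. Cd8a was not called without CD replicate 2, by limma on log2(TPM + 1) or with at least 10 counts required in every library. Kdr, an endothelial marker, was called higher on CD with the replicate block and without LD replicate 2, and Nkg7, a lymphocyte marker, higher on LD without LD replicate 3. Of the 5 stellate cell markers, 3 (Col1a1, Des and Lrat) were called higher on LD with library size alone and by limma on TPM, and 2 (Col1a1 and Des) by DESeq2 and without LD replicate 1. Without CD replicate 2, Col1a1 and Lrat were called higher on LD and Acta2 higher on CD. The summed level of the macrophage markers ran from 328 to 1007 CPM in LD mice and from 325 to 629 in CD mice, that of the endothelial markers from 332 to 474 and from 375 to 462, and that of the stellate cell markers from 255 to 431 and from 309 to 394. Of the brown fat genes, Ucp1 was at 0 in every mouse, Cidea was higher on LD (log2 fold change 5.58) and Elovl3 higher on CD (-1.36). The part of these cells in the levels below was not tested, and in whole liver fewer cells of a type and less RNA per cell cannot be told apart.

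The promoters that the results below turn on are shown first, as the 200 bases before the annotated start of each gene, read from the mm9 genome and written 5′ to 3′ on the strand of the gene. Capitals mark exact matches, on either strand, to letters known for NRF1 (GCGCANGCG), ETS factors (CCGGAAG), estrogen-related receptors (TCAAGGTCA), CCAAT boxes (CCAAT) and C/EBP factors (TTGCNNAA). Cycs (chr6:50516474-50516673, minus strand) and Atp5b (chr10:127520163-127520362, plus strand) had the tallest Hnf4α peaks of those shown, and the 5430402O13Rik transcript reaches into the Cycs stretch. The median centres of these 2 peaks lay outside the bases shown, at -395 from the start for Cycs and -350 for Atp5b. Ndufs8 (chr19:3912775-3912974, minus strand) and Ndufs6 (chr13:73465931-73466130, minus strand) are complex I genes with Hnf4α peaks in all 4 samples. The median centre was 347 bases after the start for Ndufs8, outside the bases shown, and at -2 for Ndufs6. Cox6a1 (chr5:115798965-115799164, minus strand) holds the most matches of those shown, Atp5g3 (chr2:73749384-73749583, minus strand) has a match to the estrogen-related receptor letters, and Cox7a2l (chr17:83913674-83913873, minus strand), with the smallest adjusted p for diet, has none of these matches in the bases shown.
Cycs promoter: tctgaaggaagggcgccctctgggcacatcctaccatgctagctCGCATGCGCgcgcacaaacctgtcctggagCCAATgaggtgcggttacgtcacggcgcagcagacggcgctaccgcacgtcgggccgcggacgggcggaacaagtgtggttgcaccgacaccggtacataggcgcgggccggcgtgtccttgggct
Atp5b promoter: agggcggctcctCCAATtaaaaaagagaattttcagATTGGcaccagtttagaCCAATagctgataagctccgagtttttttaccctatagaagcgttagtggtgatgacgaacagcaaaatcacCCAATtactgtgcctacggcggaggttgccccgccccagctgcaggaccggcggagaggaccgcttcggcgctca
Ndufs8 promoter: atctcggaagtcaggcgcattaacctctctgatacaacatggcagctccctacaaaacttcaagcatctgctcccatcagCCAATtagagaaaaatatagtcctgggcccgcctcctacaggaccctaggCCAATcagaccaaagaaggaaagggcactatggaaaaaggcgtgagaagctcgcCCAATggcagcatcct
Ndufs6 promoter: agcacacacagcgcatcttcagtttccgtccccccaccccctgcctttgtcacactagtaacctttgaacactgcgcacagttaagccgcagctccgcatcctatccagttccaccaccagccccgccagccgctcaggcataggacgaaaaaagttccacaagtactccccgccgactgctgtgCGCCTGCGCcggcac
Cox6a1 promoter: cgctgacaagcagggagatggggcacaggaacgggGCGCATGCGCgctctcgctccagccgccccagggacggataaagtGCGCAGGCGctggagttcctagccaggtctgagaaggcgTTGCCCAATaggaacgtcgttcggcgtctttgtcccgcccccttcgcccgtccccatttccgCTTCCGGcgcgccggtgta
Atp5g3 promoter: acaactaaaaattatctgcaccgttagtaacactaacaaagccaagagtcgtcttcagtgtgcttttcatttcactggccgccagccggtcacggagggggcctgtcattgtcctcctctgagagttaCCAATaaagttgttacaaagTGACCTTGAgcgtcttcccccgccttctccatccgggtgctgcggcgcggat
Cox7a2l promoter: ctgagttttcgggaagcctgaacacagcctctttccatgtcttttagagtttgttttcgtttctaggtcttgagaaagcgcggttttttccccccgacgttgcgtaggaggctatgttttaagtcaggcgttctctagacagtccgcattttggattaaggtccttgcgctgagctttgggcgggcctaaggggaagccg

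The levels of the genes were compared per length, as TPM (a share of all transcripts after division by length, from the authors' table, given as the mean of both diets). The most abundant were Atp5b, the catalytic beta subunit of complex V, at 1428 TPM and Ndufa4 at 1426 TPM. They were followed by Cox4i1 at 1101 TPM, the widely expressed isoform of a regulatory subunit of complex IV, by Atp5a1, the alpha subunit of complex V, at 998 TPM, and by Cox6c of complex IV at 977 TPM. The median level was 203 TPM in complex I, 363 in complex II, 315 in complex III, 564 in complex IV and 490 in complex V. Ndufb9, a membrane-arm subunit, was the most abundant gene of complex I at 748 TPM, Sdhb, the iron-sulfur subunit, that of complex II at 466 TPM, and Uqcr11, a small subunit, that of complex III at 851 TPM. Cycs, the electron carrier between complexes III and IV, was at 54.7 TPM, below every gene of complexes II and III. Several of these genes, Cycs among them, have processed copies elsewhere in the genome, and reads shared with a copy could not be traced here.

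**Figure D1:**
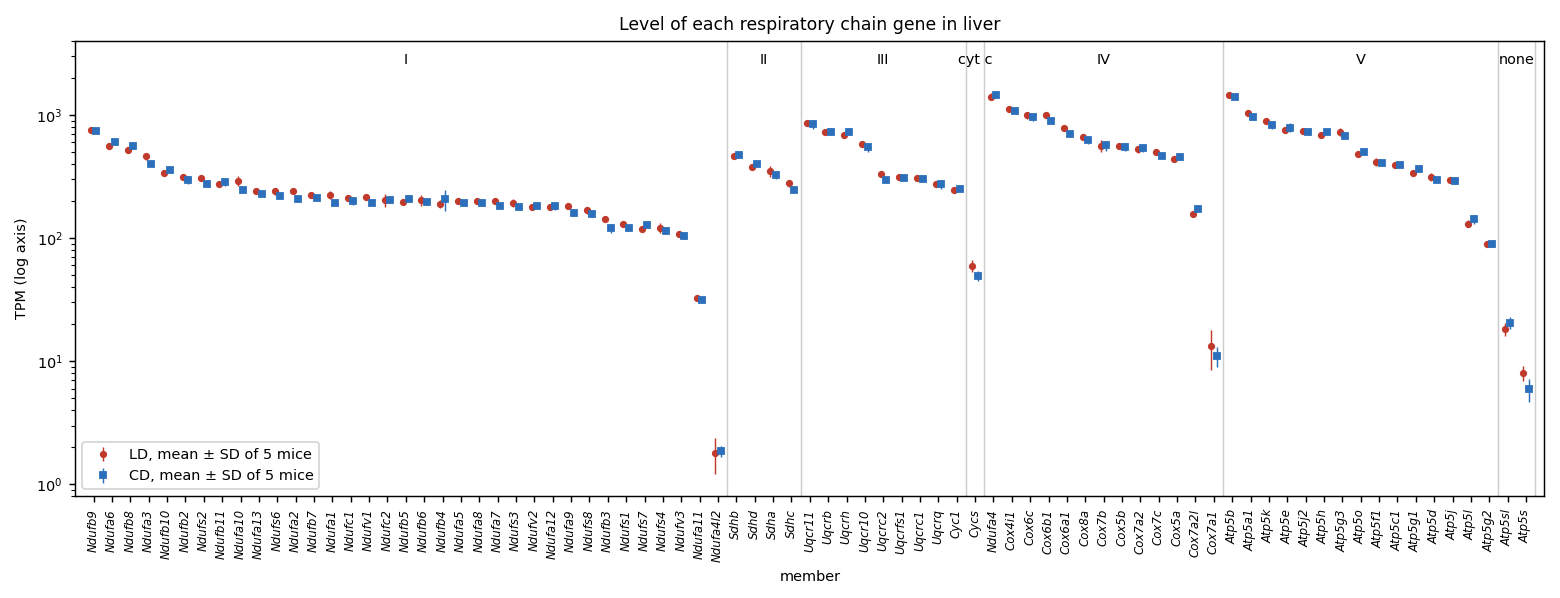
Level of each gene in TPM on a log axis, ordered within each complex by the mean of both diets; red circles are LD and blue squares CD, each the mean of 5 mice with its SD. The LD and CD points nearly coincide for most genes, and the levels run from 1.83 TPM for Ndufa4l2 to 1428 TPM for Atp5b.

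Where a subunit has several isoforms, the level was mostly that of a single gene. Cox4i1 was at 1101 TPM and Cox4i2, known from lung, at 0.199, Cox6a1 at 745 and the muscle form Cox6a2 at 0.058, Cox6b1 at 941 and the testis form Cox6b2 at 0.138, and Cox8a at 643 and the muscle form Cox8b at 0.206. Cox7a2 was at 530 TPM and the muscle form Cox7a1 at 12.1, and Ndufa4 stood against 1.83 TPM for its paralog Ndufa4l2. The genes for the c subunit of complex V, whose mature proteins are identical, were at 704 TPM for Atp5g3, 354 for Atp5g1 and 89.7 for Atp5g2.

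The 7 genes that matched by symbol but missed the minimum were Cox4i2, Cox6a2, Cox6b2, Cox7b2, Cox8b, Cox8c and Ndufs5. Cox7b2 and Ndufs5 had no count in any mouse, although Ndufs5, an accessory subunit of complex I, had an H3K27ac peak at its start in all 6 samples; its row overlaps BC002163 on the same strand, which was also at 0. Cox4i2 had 22 counts over the 5 LD mice and 5 over the 5 CD mice, Cox6a2 had 5 and 2, Cox6b2 9 and 7, Cox8b 5 and 9, and Cox8c 2 and 0. With the filter on low counts removed, Cox4i2 alone of the 5 with counts had an adjusted p under 0.05 (edgeR, log2 fold change 1.97, adjusted p = 0.0486).

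The diet comparison asked which of these genes were higher in liver on LD or on CD. None of the 79 met the call, an adjusted p under 0.05 with a fold change above 1.2, in either direction (edgeR quasi-likelihood test, Benjamini-Hochberg adjustment over all 13494 rows tested; DESeq2 also called none). Over all rows tested, 13.8% were called higher on LD (1859 rows) and 11.1% higher on CD (1498 rows); scaled by library size alone, these were 2433 and 908 rows. At an unadjusted p under 0.05, 13 of the 79 genes differed, 3 higher on LD and 10 higher on CD, which is 16.5% against 39.1% of all rows. The 13 became 5 to 14 with a mouse left out, 15 by DESeq2, 16 with library size alone and 19 by limma on TPM. With no minimum fold change, 2 genes had an adjusted p under 0.05, which is 2.53% against 28.1% of all rows. That count was 6 by DESeq2, 12 with library size alone, 14 by limma on TPM and 1 to 4 with a mouse left out. The median log2 fold change (LD over CD) was -0.03 over the 79 genes and -0.002 over all rows tested, with 29 genes above 0 and 50 below. With library size alone both medians were above 0, at 0.05 and 0.08, and the 79 genes were still the lower. Without CD replicate 1 they were the higher, at 6.56e-05 against -0.0041.

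The intervals show how far the genes could have moved. For 49 of the 79 genes (62% against 17.9% of all rows tested), the 95% interval of the fold change lay wholly within 1.2-fold in either direction. These were 23 of 35 genes in complex I, 2 of 4 in complex II, 7 of 9 in complex III, 7 of 13 in complex IV and 10 of 15 in complex V. Precision differs with level, so like was set beside like: at a mean of 100 to 500 CPM, where 49 of the genes lie, 30 of them had such an interval against 25.3% of all 1184 rows, and 0 of the 49 were called against 34.5% of the rows. Under the other edgeR settings and with each mouse left out, between 40 and 56 of the 79 genes had such an interval.

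**Figure D2:**
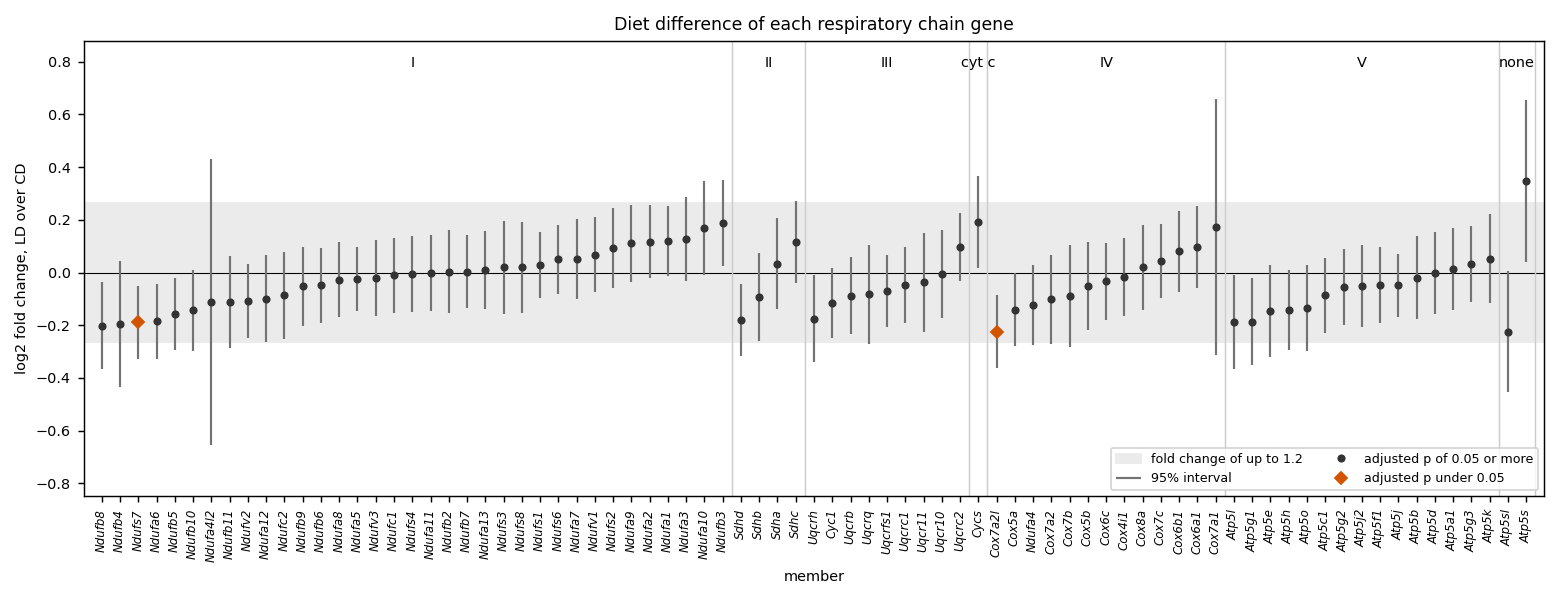
Log2 fold change, LD over CD, of each gene with its 95% interval from edgeR, ordered within each complex; the grey band is a fold change of up to 1.2, and orange diamonds have an adjusted p under 0.05. All but Atp5s lie within the band as point estimates, and the 2 diamonds, Ndufs7 and Cox7a2l, lie below 0.

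Cox7a2l, a relative of the Cox7a subunits, had the smallest adjusted p. Its levels were 92.3, 99.9, 97.2, 97.2 and 86 CPM in the LD mice and 120, 106, 104, 112 and 110 CPM in the CD mice. All LD mice were below all CD mice, and the means were 94.5 ± 5.5 and 110.5 ± 6.25 CPM (SD, n = 5 each). The log2 fold change was -0.23 ± 0.06 (SE, adjusted p = 0.0188), a fold of 0.855 (95% interval 0.777 to 0.941), which is short of the minimum fold for a call.

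Ndufs7, a core subunit of complex I that holds its last iron-sulfur cluster, was at 46.5, 47, 50.6, 51.7 and 42 CPM in LD mice and at 56.1, 52.8, 54.4, 55 and 52.8 CPM in CD mice. The LD mice lay below the CD mice without overlap. Its log2 fold change was -0.19 ± 0.06 (SE, adjusted p = 0.0413), again short of the minimum fold.

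Sdhd, a membrane anchor of complex II, and Ndufb8, an accessory subunit in the membrane arm of complex I, also had all LD mice below all CD mice. Sdhd was at 245, 261, 258, 257 and 251 CPM on LD and at 321, 286, 277, 276 and 280 CPM on CD (log2 fold change -0.18 ± 0.06, adjusted p = 0.0507). Ndufb8 was at 187, 184, 174, 166 and 167 CPM on LD and at 238, 199, 188, 188 and 197 CPM on CD (log2 fold change -0.20 ± 0.08, adjusted p = 0.0654). CD replicate 1 was the highest mouse for both, and for Ndufb8 the highest LD mouse (187 CPM) was just under the lowest CD mouse (188 CPM). In all, 4 of the 79 genes (5.06%) had groups that did not overlap against 18.5% of all rows, each of them lower on LD.

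On the other side, Cycs was at 104, 99.3, 98.1, 82.8 and 98.4 CPM in LD mice and at 91.2, 93.1, 85.3, 72.6 and 80.3 CPM in CD mice. All LD mice but replicate 4 were above all CD mice, and the log2 fold change was 0.19 ± 0.08 (SE, adjusted p = 0.0984). Ndufb3, an accessory subunit of complex I, had the highest value of that complex, at 58.5, 57, 58.1, 61 and 50.6 CPM on LD and 54.4, 46.3, 53.7, 43.6 and 52.2 CPM on CD (log2 fold change 0.19 ± 0.08, adjusted p = 0.0823). LD replicate 5 was within the range of the CD mice for this gene. Cycs, Ndufb3 and Atp5s were called higher on LD when scaled by library size alone and by limma on TPM.

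The most abundant genes were close to level between the diets. Atp5b was at 1404, 1357, 1492, 1618 and 1358 CPM in LD mice and at 1558, 1498, 1427, 1446 and 1396 CPM in CD mice, with a fold of 0.987 (95% interval 0.884 to 1.10). The groups overlapped widely, and the highest mouse of each diet was LD replicate 4 and CD replicate 1. Ndufa4 had a fold of 0.918 (0.827 to 1.02), Cox4i1 of 0.988 (0.892 to 1.10) and Atp5a1 of 1.01 (0.906 to 1.12).

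**Figure D3:**
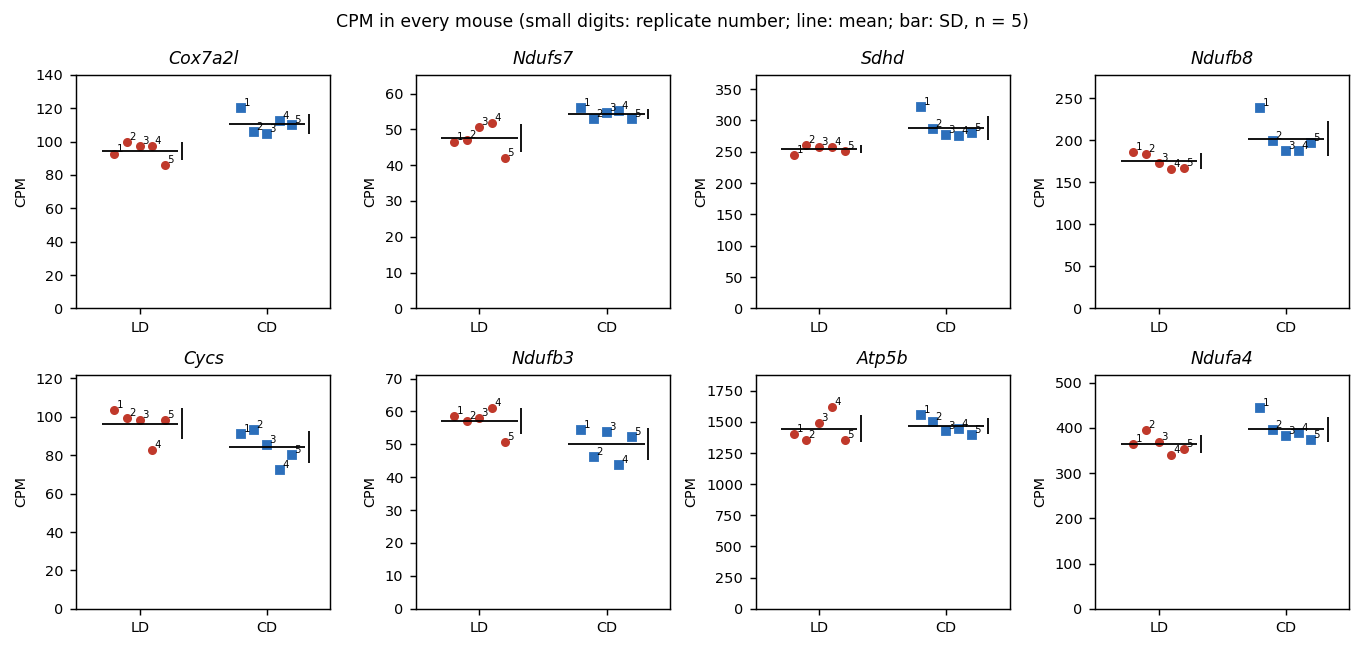
CPM of 8 genes in every mouse, with the mean as a line and the SD as a bar beside it (n = 5 per diet); digits are replicate numbers and every axis starts at 0. The LD mice lie below the CD mice without overlap for Cox7a2l, Ndufs7, Sdhd and Ndufb8 and overlap them for the other genes.

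By complex, the largest drops and rises stayed under a 1.2-fold change. In complex I the log2 fold changes ran from -0.20 for Ndufb8 to 0.19 for Ndufb3, with a median of -0.01, and 16 of 35 genes were above 0. In complex II the catalytic flavoprotein Sdha was at 0.03 ± 0.08, the iron-sulfur subunit Sdhb at -0.09 ± 0.08 and the anchor Sdhc at 0.12 ± 0.07, opposite in sign to the other anchor Sdhd. In complex III, 8 of 9 genes were below 0, from Uqcrh, a hinge protein that helps hold cytochrome c1, at -0.17 ± 0.08 (adjusted p = 0.109), with Cyc1, cytochrome c1 itself, at -0.11 ± 0.06 (adjusted p = 0.188), and the exception was the core subunit Uqcrc2 at 0.10 ± 0.06 (adjusted p = 0.257). In complex IV the range was -0.23 for Cox7a2l to 0.17 for Cox7a1. In complex V, 12 of 15 genes were below 0, from Atp5l at -0.19 ± 0.08 to Atp5k at 0.05 ± 0.08, both small membrane subunits. Atp5s, also called coupling factor B, and Atp5sl, an assembly factor of complex I, are not subunits and were at 0.35 ± 0.14 (adjusted p = 0.0854) and -0.22 ± 0.11 (adjusted p = 0.135), at means of 6.27 and 23.7 CPM on LD, and Atp5s was called without CD replicate 3.

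Summed over the members of a complex, the ratio of LD to CD was close to 1. The sum over all 79 genes was 15020 CPM on LD (SD 608, n = 5), to be set beside 15360 CPM on CD (SD 875, n = 5), for a ratio of 0.978. The ratio was 0.99 for complex I, 0.979 for complex II, 0.966 for complex III, 0.972 for complex IV and 0.976 for complex V. In the LD mice the sum of complex V was 5219, 5080, 5268, 5655 and 4925 CPM, and in the CD mice it was 5837, 5387, 5158, 5221 and 5192 CPM, so the groups overlapped. The direction of these sums depends on the TMM factors. As an unscaled share of counts, the 79 genes took 1.55, 1.55, 1.54, 1.55 and 1.52% in LD mice. In CD mice the share was 1.61, 1.5, 1.44, 1.43 and 1.48%, so every LD mouse was above every CD mouse but replicate 1.

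A mouse of each diet stood at the edge of these sums. CD replicate 1 was the highest of all 10 mice for 45 of the 79 genes, with a median log2 deviation of 0.16 from the mean of all mice, and LD replicate 5 was the lowest for 35 of the 79, with a deviation of -0.10. Genes of the cytosolic ribosome deviated in the same mice by 0.34 and -0.26. Without CD replicate 1 the median log2 fold change of the 79 genes was 6.56e-05, beside -0.0041 over all rows. Without LD replicate 5 it was -0.0096, beside -0.0026 over all rows. No gene was called without either mouse.

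**Figure D4:**
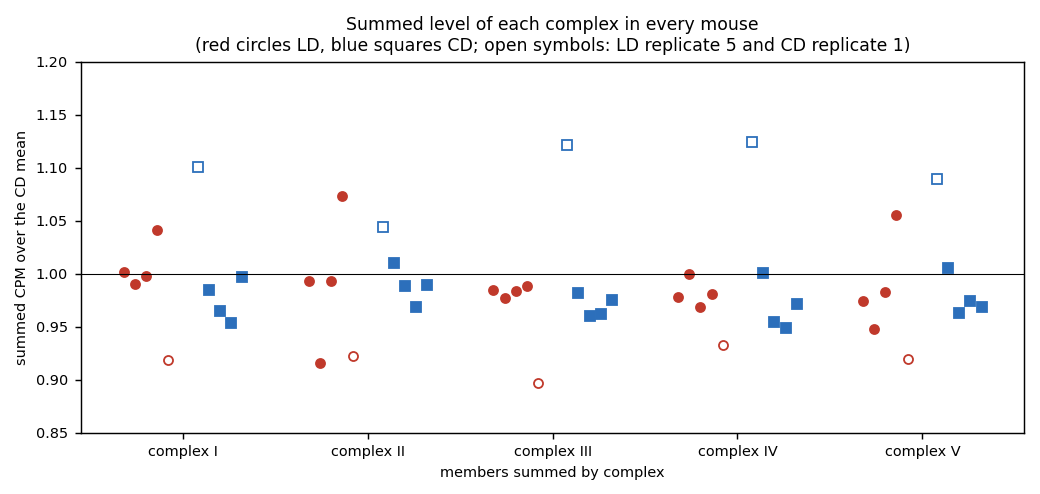
Summed CPM of the genes of each complex in every mouse, divided by the mean of the CD mice; red circles are LD, blue squares CD, and open symbols mark LD replicate 5 and CD replicate 1. CD replicate 1 is the highest mouse in complexes I, III, IV and V and LD replicate 5 the lowest in complexes I, III, IV and V.

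Factors that build the chain were read beside the subunits, from lists of genes named for their role. Of 47 assembly factors tested, 4 were higher on LD (against 13.8% of all rows) and 1 was higher on CD (against 11.1%), both smaller shares than over all rows, with a median log2 fold change of 0.008. Those higher on LD were Cox19, which helps deliver copper to complex IV (0.39 ± 0.10, adjusted p = 0.00797), Coa6, of the same copper route (0.36 ± 0.09), Nubpl, which inserts iron-sulfur clusters into complex I (0.32 ± 0.10), and Uqcc2 of complex III (0.28 ± 0.07). Lrpprc, which stabilises mitochondrial mRNAs, was lower on LD at -0.29 ± 0.07 (adjusted p = 0.00725). Of 9 coenzyme Q genes, 2 were higher on LD, Coq7 at 0.44 ± 0.09 and Coq2 at 0.33 ± 0.09, and none lower. Suclg2, a subunit of succinyl-CoA ligase, was the only 1 of 13 citrate cycle genes called (0.36 ± 0.09, higher on LD). Lrpprc was not called with library size alone, by limma on TPM or without CD replicate 3, neither Nubpl nor Uqcc2 was called without CD replicate 2 or without CD replicate 4, Nubpl was not called without LD replicate 4, and Uqcc2 was not called without LD replicate 3. Cox11, which delivers copper to complex IV, was also called higher on CD by DESeq2 and without LD replicate 1, LD replicate 5 or CD replicate 1. With library size alone 7 assembly factors, 4 citrate cycle and 4 coenzyme Q genes were called, all higher on LD. By limma on TPM it was 5 or 6 assembly factors, 4 citrate cycle and 4 coenzyme Q genes, again all higher on LD. Of the citrate cycle genes, 3 were called without LD replicate 2 and 2 without CD replicate 3 (Suclg1 and Suclg2). Of the coenzyme Q genes, 3 were called without LD replicate 2 and without CD replicate 3.

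Genes at the entry and exit of the chain gave 4 calls of 10, all higher on LD, against 13.8% of all rows. Ucp2, a carrier of the inner mitochondrial membrane, was at 27.4, 37.6, 38.3, 31.8 and 33.5 CPM in LD mice and at 19.3, 17.2, 13.3, 15.3 and 16.6 CPM in CD mice. All LD mice were above all CD mice, with a log2 fold change of 1.05 ± 0.11 (SE, adjusted p = 3.8e-05). Slc25a4, an ADP/ATP carrier, was at 0.50 ± 0.13, Atpif1, the inhibitor of complex V, at 0.37 ± 0.08, and Etfdh, which passes electrons from fatty acid oxidation to coenzyme Q, at 0.31 ± 0.08, which was not called without LD replicate 4.

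Of 77 genes of the mitochondrial ribosome, 2 were called, both higher on LD (Mrpl16 at 0.38 ± 0.07 and Mrpl45 at 0.28 ± 0.08), a smaller share than the 13.8% of all rows, with a list median of 0.04 and 7 calls with library size alone. Of 95 genes matched by symbol to the cytosolic ribosome, 55 were called higher on CD, against 11.1% of all rows, and none higher on LD, with a median of -0.30. Without the S6 kinases and Rps19bp1, which match by name only, the count was 55 of 85 and the median -0.31. That count was 28 when scaled by library size alone, 31 by limma on TPM and 38 without CD replicate 1, the mouse whose ribosomal genes were highest. It was 4 in a test against a fold of 1.2.

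Among 15 known regulators of the chain, 3 were lower on LD, against 11.1% of all rows, and 1 was higher, against 13.8%, a share of calls near that of all rows. Ppargc1a, which encodes PGC-1α, was at 7.2, 6.27, 6.92, 6.03 and 6.71 CPM in LD mice and at 10.4, 11.7, 11.4, 13.2 and 8.24 CPM in CD mice. All LD mice were below all CD mice, with a log2 fold change of -0.73 ± 0.12 (SE, adjusted p = 0.000701). Its relative Ppargc1b was at -0.62 ± 0.20 (adjusted p = 0.0295) and Yy1 at -0.30 ± 0.08 (adjusted p = 0.011). Ppara, the receptor that drives fatty acid oxidation genes, was higher on LD at 0.34 ± 0.10 (adjusted p = 0.016). When scaled by library size alone and by limma on TPM, Ppargc1a alone was called lower on LD, as it was without CD replicate 4. Ppargc1b was also not called without LD replicate 2 or 3 or without CD replicate 3 or 5, and Yy1 without LD replicate 4. Nrf1 was at -0.19 ± 0.09 (adjusted p = 0.114), Esrra at 0.02 ± 0.08, Tfam, which packages mitochondrial DNA and helps start its transcription, at 0.02 ± 0.05, and Gabpa, the DNA-binding part of GABP, at -0.21 ± 0.07 (adjusted p = 0.0385, short of the minimum fold).

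H3K27ac, an acetylation of histone H3 found at active promoters and enhancers, was read as the regions the authors called in each sample. All 79 genes had such a region within 1000 bp of the start in all 6 samples, against 85.8% of all rows tested and 97.1% of rows with a mean of at least 50 CPM. At least 50% of that window was covered in all 6 samples for 76 of the 79, and the 3 others were Cox6c, Cox7a1 and Ndufa4l2, of which the last 2 have the lowest TPM in complexes IV and I. Of the 7 genes that missed the count minimum, 5 had no region at the start in any sample. They were Cox4i2, Cox6a2, Cox6b2, Cox7b2 and Cox8c, while Cox8b had a region in 5 of the 6 samples.

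Few genes differed by diet in how far H3K27ac reached. The covered share of the window was higher in all LD samples than in all CD samples for Ndufa8 (1 of 79, against 3.86% of rows) and lower for Atp5e and Atp5k (2 of 79, against 0.855% of rows). These percentages, and those for the lengths below, are of the 11573 rows with a region in all 6 samples. The summed length of the regions was greater on LD for 2 genes, Atp5g2 and Cox5a (against 8.34% of rows), and smaller for 5, Atp5e, Atp5j, Atp5k, Atp5sl and Ndufb7 (against 3.64% of rows). Ndufb7, an accessory subunit of complex I, had 1200, 1400 and 1800 bp on LD and 3600 bp in each CD sample. These lengths count whole regions, also beyond the window. The covered share of the window at Ndufb7 overlapped between diets, at 52.8, 70 and 82.8% on LD and 72.8, 62.8 and 52.8% on CD. Atp5e, the epsilon subunit of complex V, had 1400, 2000 and 1800 bp on LD and 2800, 3000 and 2800 bp on CD. With 3 samples a group, an exact permutation test cannot go below p = 0.1, and these lengths and shares were not tested in another way.

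Hnf4α, a nuclear receptor that sets hepatocyte gene expression, was read as peaks the authors called in each sample. A peak centre lay within 1000 bp of the start of 46 and 45 of the 79 genes on LD, by sample, and of 43 and 61 on CD. All 4 samples had a peak at 28 genes (35.4% against 22.1% of all rows), and none had a peak at 12 (against 39.1% of all rows). Among rows with a mean of at least 50 CPM, the share with a peak in all 4 samples was 38.4% and that of the 70 genes at this level was 34.3%, so the excess over all rows was not seen at like expression. By complex, the 28 were 10 of 35 genes in complex I, 3 of 4 in complex II, 4 of 9 in complex III, 2 of 13 in complex IV, 7 of 15 in complex V, Cycs and Atp5s.

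The tallest Hnf4α peak was at Cycs, with a height (normalized tag count) of 83.8 and 81.5 on LD, against 61.8 and 125 on CD. Ndufs1, the largest core subunit of complex I, followed with 87.2 and 62.8 on LD and 46.5 and 76 on CD. Atp5b had 81.8 and 67 on LD and 32.8 and 80 on CD. In each of the 3 the CD samples differed more from each other than the LD samples did, and CD replicate 1 was the lowest, as it was for Ndufa2 (67.2 and 56.2 on LD, 35.8 and 62.8 on CD) and Ndufs8 (43.2 and 32.8 on LD, 19.5 and 45.8 on CD). That library had 35143 peaks against 44247 to 47992 in the others. An opposite-strand gene starts within 1000 bp upstream of Cycs (5430402O13Rik), Ndufs1 (Eef1b2) and Ndufa2 (Ik). The peaks at these genes cannot be assigned to either gene of the pair.

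Of the 28 genes with a peak in all 4 samples, Sdhc had both LD heights above both CD heights, at 35.2 and 34 against 22.2 and 32.2 (1 gene, against 10.4% of rows). Ndufb2 and Uqcrc2 had both below (2 genes, against 5.7% of rows). A peak was called in both CD samples and neither LD sample at 5 genes, Ndufa5, Ndufb6, Ndufv2, Uqcr10 and Uqcrh (6.33% against 3.78% of rows), and in both LD samples and neither CD sample at Atp5a1 (1.27% against 1.29%). With 2 samples a group the smallest p an exact permutation test can give is 0.33, and the heights were not tested in another way. Hnf4a RNA was lower on LD at -0.26 ± 0.07 (adjusted p = 0.0176, short of the minimum fold).

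**Figure D5:**
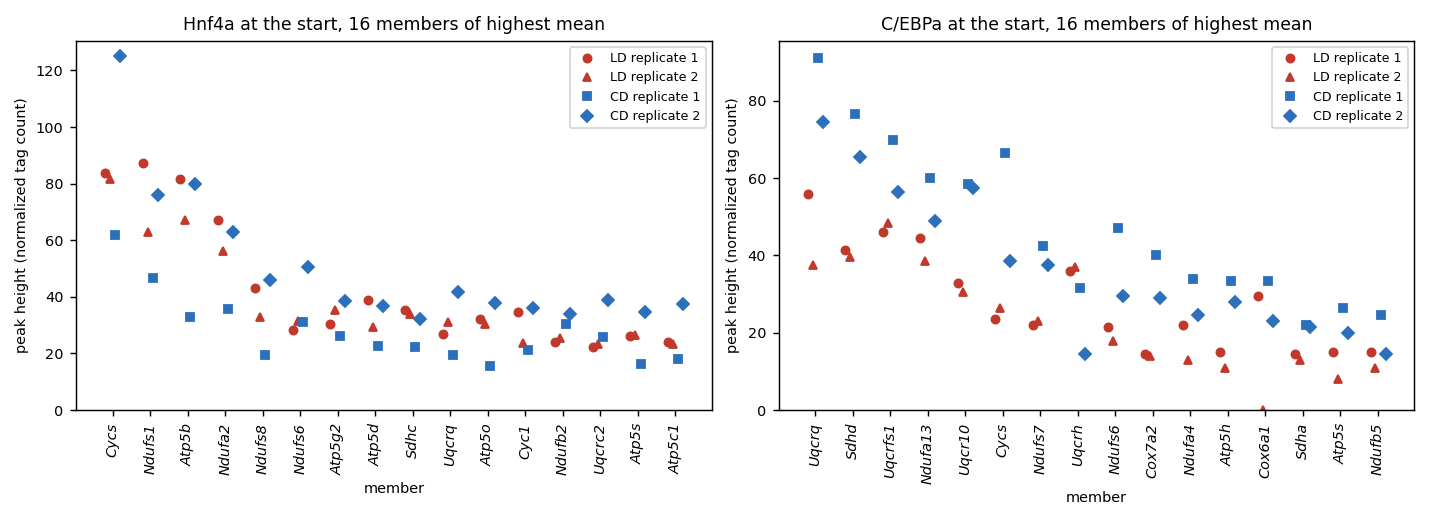
Height of the peak at the start, in normalized tag counts, in each of the 4 samples for the 16 genes with the highest mean, Hnf4α at left and C/EBPα at right; circles and triangles are LD, squares and diamonds CD, and a height of 0 means no peak. For Hnf4α the LD and CD heights overlap for all 16 genes but Sdhc, Ndufb2 and Uqcrc2, and most LD heights are below the CD heights for C/EBPα.

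C/EBPα, a factor of hepatocyte and fat cell genes, had a peak at 32 and 31 of the 79 genes on LD, by sample, and at 34 and 29 on CD. All 4 samples had a peak at 18 genes (22.8% against 15.5% of all rows), and 31 had none (against 51.4%). At a mean of at least 50 CPM the shares were 24.3% of the genes and 25.1% of rows. Both LD heights were below both CD heights at 16 of the 18 genes, and so were those of 63.9% of the 2094 rows with a peak in all 4 samples. Uqcrq, a small subunit of complex III, had 56 and 37.5 on LD and 91 and 74.5 on CD, and Sdhd had 41.5 and 39.5 on LD and 76.5 and 65.5 on CD. Uqcrfs1, the Rieske iron-sulfur protein of complex III, had 46 and 48.5 on LD and 70 and 56.5 on CD, while Uqcrh had both LD heights above (36 and 37 against 31.5 and 14.5; 1 gene, against 2.48% of rows). Cox5a had a peak in both LD samples and neither CD sample (1 gene, against 1.59% of rows), and 0 genes had the reverse (against 1.93% of rows).

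Both factors had a peak in all 4 samples at 6 genes (7.59% against 6.27% of all rows), and neither had a peak in any sample at 7 (8.86% against 27.5%). Complex II had 2 of the 6, Sdha and Sdhd, and the others were Ndufs6, Uqcrq, Cycs and Atp5s.

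The letters searched in the promoters are given here for 250 bases before to 50 after each start, on both strands. The NRF1 letters GCGCANGCG were in 19 of the 79 promoters (24.1% against 12.7% of all 13478 promoters), the YY1 letters AANATGGCG in 10 (12.7% against 5.19%) and the ETS letters CCGGAAG in 18 (22.8% against 17.2%). The estrogen-related receptor letters TCAAGGTCA were in 2, Sdhd and Atp5g3 (2.53% against 0.26%). CCAAT was in 31 (39.2% against 38.2%), the Sp1 letters GGGCGG in 34 (43% against 62.2%), TATAAA in 6 (7.59% against 7.79%) and the C/EBP letters TTGCNNAA in 8 (10.1% against 8.75%), and the C/EBP letters can overlap CCAAT, as they do in Cox6a1. The Hnf4α letters CAAAGTNCA were in none of the 79, Cycs and Atp5b with the tall peaks included (against 1.38%), which says only that these letters are not in this window. The median Hnf4α peak centre lay outside this window for both, at -395 bases from the start for Cycs and -350 for Atp5b. The sequence under those centres was not searched. The promoters had a median GC content of 57% against 60.3% over all rows.

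In the promoters printed above, Atp5b has 4 CCAAT matches within 188 bases before the start, Ndufs8 has 3, and in Cox6a1 a pair of overlapping NRF1 matches begins 165 and 164 bases before the start. Another gene on the opposite strand started at most 1000 bp upstream of 21 of the 79 genes (26.6%), against 13.5% of all rows tested. Opposite-strand genes that start inside the gene itself, such as Rnf113a1 at Ndufa1 and Gabpa at Atp5j, are not in these counts. Among the 21 were Sdhd with Timm8b, a chaperone of mitochondrial import, Ndufb5 with Mrpl47 of the mitochondrial ribosome, Ndufa7 with Rps28 of the cytosolic ribosome and Ndufs1 with Eef1b2, a translation elongation factor. A peak at such a start, or at a start shared with an overlapping gene, cannot be assigned to either gene of the pair.

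Promoter contacts up to 1 Mb were read from the authors' capture Hi-C list of each diet (score of at least 5). On LD 65 of the 79 genes had a contact and on CD 64, with a median of 3 on each diet, the same median as over all rows. The genes had 720 contacts on LD and 742 on CD, of which 520 were in both lists, which is 72.2% of the LD contacts and 70.1% of the CD contacts against 71% and 71.3% over all rows. Cox6b1 had the most on LD, 67 against 56 on CD, and Ndufb6 the most on CD, 70 against 54 on LD. No contact joined 2 of the 79 genes, and since each list pools its replicates, the difference between lists has no replicate check.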

How the data were processed

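Liver RNA-seq (5 mice per diet), ChIP-seq peak lists and capture Hi-C contacts were taken as the authors deposited them; the libraries' ChIP inputs and Hi-C maps were not analysed here. The authors aligned RNA reads with STAR 2.5 and counted stranded reads per RefSeq gene of mm9 with featureCounts 1.5.0-p1; the counts are deposited unscaled, beside a table of TPM per gene. Every per-sample column was mapped to a sample or its group (0 left over), 1 TPM column only to its diet. For ChIP-seq the submitters' processing notes name Bowtie 0.12.8 and Picard 1.110. H3K27ac regions are SICER intervals called per sample, and only their positions were used, not the deposited signal. HOMER called Hnf4α and C/EBPα peaks per sample, and the heights are deposited as a signal, tag counts scaled alike in the libraries of 1 factor. Contacts carry the authors' CHiCAGO score from pooled replicates.

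The genes and all lists were chosen with earlier results of these data known. Counts were tested with edgeR 4.0.16 (TMM, filterByExpr, robust quasi-likelihood fit, 5 against 5 mice), calling an adjusted p under 0.05 with a fold above 1.2. The scripts were tested on simulated data. DESeq2 1.42.0, limma 3.58.1 on log2(TPM + 1) and log2(TPM + 0.1), other scalings and filters, a replicate block and each mouse left out were the alternatives. Promoters were read from the mm9 (NCBIM37) assembly, with peaks placed within 1000 bp of the start. Python 3.11.15 (pandas 2.3.3, matplotlib 3.10.9) and R 4.3.3 were used.

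Genes were named by rule: members called (there were none), those with the 2 highest TPM and the lowest and highest fold change of each complex, all of complex II, Cyc1 and Cycs, isoform pairs, symbols under the count minimum, the 5 tallest Hnf4α peaks, and the listed regulators. The called genes of the other lists were named because they were called, outside this rule, and other genes (Ndufs7 and Uqcrq, for example) were chosen after their values were seen.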

Additional observations from a re-analysis of the deposited data

Results flagged for a closer look

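Within a diet of 5 mice, some values lay far from the other mice (gap to the nearest mouse over 0.71 of the whole range), and chance alone gives such a gap in about 1 of 20 groups. Over the 79 genes and both diets, 13 of 158 groups (8.23%) had such a mouse, and in 9 of the 13 it was CD replicate 1, each time the highest.

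CD replicate 1 was apart from the other CD mice at 238.4 CPM for Ndufb8, 298.2 for Ndufb9, 320.6 for Sdhd, 333.8 for Uqcrc2, 259.7 for Uqcrh and 158.4 for Atp5k among the genes named by the rule. Its summed level was likewise apart, at 2222 CPM for complex III, where the next CD mouse had 1944, and at 16875 CPM over all 79 genes. LD replicate 5 was the lowest LD mouse, and apart, at 1776 CPM for the sum of complex III, 226.7 for Sdhb and 168.9 for Uqcr11. LD replicate 4 was apart at 82.76 CPM for Cycs, the lowest LD mouse, and at 290.4 CPM for Cox6b1 and 458.9 CPM for Hnf4a, the highest. CD replicate 3 was the highest CD mouse for Esrrg, a low regulator, at 4.94 CPM against 2.77 in the next. The cause of these gaps was not tested.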

How the results depend on the processing

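With library size alone, limma on log2(TPM + 1) and limma on log2(TPM + 0.1), 3 genes were called higher on LD (Atp5s, Cycs and Ndufb3), and the median log2 fold change of the 79 genes was 0.0453, 0.0441 and 0.0441, beside 0.076, 0.0563 and 0.0712 over all rows; these settings lack the TMM scaling. With no minimum fold change 2 genes, Cox7a2l and Ndufs7, were higher on CD. Leaving out each mouse in turn gave 0 to 1 genes higher on LD (Atp5s without CD replicate 3), 0 higher on CD and medians from -0.0495 to 6.56e-05. DESeq2, its size factors in edgeR, both other count filters and a test against a fold of 1.2 called none. The fit with the replicate number as a block called 0 genes, with a median of -0.0335; same-numbered mice correlated at -0.113 to 0.217 and only LD replicate 2 correlated best with its own number, so the numbers were not read as pairs. Over all rows the block gave 1818 and 1355 calls, against 919 and 459 in the test against a fold of 1.2. Genes with H3K27ac at the start numbered 76 to 79, those with Hnf4α in all samples 21 to 34, and those with C/EBPα 12 to 23. The C/EBPα settings, the rows of at least 50 CPM and the ribosome list without S6 kinases were chosen after seeing the data. Of 960 values of the 48 tested genes named by rule, 891 kept direction and side of the threshold, 42 uncalled values changed sign, 16 lost the call (Ppargc1b, Yy1, Ppara) and 11 gained it (Cycs, Ndufb3, Cox7a2l, Gabpa, Hnf4a); called genes of the other lists are not in this tally. Of those, Nubpl, Uqcc2, Lrpprc and Etfdh lost calls without single mice, and the test against a fold of 1.2 called no assembly factor, coenzyme Q, mitochondrial ribosome or citrate cycle gene, not Tat, Cd8a or Lyve1, and for electron entry Ucp2 alone. Peak differences between diets were not tested.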
